A study of Homo sapiens with 24 samples.

Results

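The 10 genes of oxygen transport and haem handling were followed across OCI-AML3 leukaemia cells recovered from mice. They are the globin genes HBA2, HBB and HBD, the haem synthesis genes ALAS1, ALAS2, UROD and FECH, the red cell enzyme gene BPGM, and the haem breakdown genes HMOX1 and BLVRB. The genes were chosen by name, with earlier results of these data known. Every probe that the platform's listing gives to one of these 10 symbols was taken, 18 probes in all. The array holds 20046 genes with a probe of 1 symbol. Each probe was read separately with its detection p-value, which compares its brightness with that of the array's negative control probes. A probe is called detected on an array when that p-value was under 0.01.

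OCI-AML3 is a human acute myeloid leukaemia line, here marked with luciferase and GFP, which was inoculated into NSG mice, a strain that lacks lymphocytes but keeps its own red cells and myeloid cells. Leukaemia cells were sorted on GFP and human CD45 from peripheral blood, spleen and femoral marrow of the same 8 mice, and their RNA was amplified in 2 rounds before it was hybridised to 24 Illumina human arrays. The 3 control mice had no treatment named in the labels and were harvested on day 42. A further 3 mice received the CXCR4 inhibitor LY2510924 at 2.5 mg/kg under the skin daily from day 40 and were harvested on day 41, after 24 h, and 2 mice were treated for 72 h and harvested on day 43. The sample characteristics spell the compound LY2510294. Treatment and harvest day cannot be told apart, and the labels give neither the age nor the sex of the mice nor a vehicle for the controls. Each site has 3 control arrays, 3 arrays after 24 h and 2 arrays after 72 h. All arrays of the 24 h mice and of 1 control mouse lay on 1 BeadChip, and all arrays of the other 2 control mice and of the 72 h mice on another. The mice are separate animals, but the cells come from 1 line.

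Haemoglobin is a tetramer of alpha-type chains, encoded on chromosome 16 by HBA1 and HBA2, and beta-type chains, encoded on chromosome 11 by HBB and its minor adult relative HBD. Each chain holds a haem group. Haem synthesis begins in the mitochondrion with aminolevulinate synthase, as ALAS1 in most cells and as ALAS2 in red cell precursors, passes through the cytosolic decarboxylase UROD, and ends in the mitochondrion where FECH inserts iron. Haem is opened by haem oxygenase, whose stress-inducible form is HMOX1, and the biliverdin so made is reduced by the biliverdin reductases BLVRA and BLVRB. BPGM makes bisphosphoglycerate, which lowers the oxygen affinity of haemoglobin in red cells. A cell of the myeloid lineage is expected to use ALAS1, UROD and FECH, since every haem enzyme and cytochrome needs them, while abundant globin and ALAS2 RNA is the mark of red cell precursors.

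The genes on which the results turn differ in their promoters, so the 250 bases before the RefSeq start site of HBD, ALAS2 and FECH are given here from GRCh38.p14. These 3 stand for a globin, the red cell form of the first enzyme and the shared last enzyme. HBD lies on the minus strand at chr11:5234484-5234733, ALAS2 on the minus strand at chrX:55030978-55031227 and FECH on the minus strand at chr18:57586703-57586952. Capitals mark a GATA hexamer, which is AGATAA or its variants with T as first letter, G as last letter or both, letters that GATA factors recognise, or the CACCC-type pattern CCNCNCCC, on either strand, and no base belonged to both kinds of match.
HBD: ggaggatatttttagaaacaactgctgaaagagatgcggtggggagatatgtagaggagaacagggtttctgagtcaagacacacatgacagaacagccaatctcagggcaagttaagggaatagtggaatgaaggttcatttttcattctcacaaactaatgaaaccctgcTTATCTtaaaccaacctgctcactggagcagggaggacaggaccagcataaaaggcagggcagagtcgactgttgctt
ALAS2: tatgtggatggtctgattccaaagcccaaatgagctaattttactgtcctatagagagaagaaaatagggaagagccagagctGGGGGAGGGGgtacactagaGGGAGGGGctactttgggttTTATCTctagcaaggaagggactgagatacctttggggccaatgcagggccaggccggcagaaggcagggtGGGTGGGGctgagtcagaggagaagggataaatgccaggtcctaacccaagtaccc
FECH: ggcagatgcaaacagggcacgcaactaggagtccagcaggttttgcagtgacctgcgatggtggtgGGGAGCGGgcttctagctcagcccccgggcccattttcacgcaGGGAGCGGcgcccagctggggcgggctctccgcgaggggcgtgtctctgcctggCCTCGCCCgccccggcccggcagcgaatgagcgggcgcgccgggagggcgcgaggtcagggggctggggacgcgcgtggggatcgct
The HBD stretch holds 1 GATA hexamer, which starts 78 bases before the start site, and 0 matches to CCNCNCCC. ALAS2 holds 1 GATA hexamer, 127 bases before the start, and 4 matches to CCNCNCCC at 167, 165, 147 and 56 bases, the first 2 of which overlap. FECH holds 0 GATA hexamers and 3 matches to CCNCNCCC at 184, 141 and 87 bases, in a stretch with a GC content of 72.4%, against 45.2% in HBD and 52.8% in ALAS2. Of the 7 members with a promoter in the RefSeq table, HBD and ALAS2 hold a GATA hexamer and ALAS1, BPGM, BLVRB, UROD and FECH do not. Among all 35116 promoters of this length in the table, 22.3% hold a GATA hexamer and 53.4% a match to CCNCNCCC, so a match is a description of the letters and not a binding site.

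Of the 18 probes, 10 were detected on at least 3 arrays and entered the tests, and these stand for 9 genes. HBB was left without a tested probe. The 2 HBA2 probes disagreed: ILMN_1667796 was detected on 24 of 24 arrays with raw signals of 1180 to 23576, and ILMN_2127842 on 2 of 24 arrays with 51.1 to 123. HBA2 and its neighbour HBA1 are nearly identical genes, and the HBA1 probe was detected on 0 of 24 arrays, with raw signals of 46.6 to 69.8. What ILMN_1667796 measures is therefore uncertain, and whether mouse globin RNA hybridised to it was not tested, since probe sequences were not used here. The single HBB probe, ILMN_2100437, was detected on 2 arrays, the spleen and the marrow of mouse 9 of the 72 h group, at 147.8 and 159 units of raw signal.

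Markers of red cell precursors were mostly dark on the same arrays. Of 17 erythroid marker genes, each read through 1 probe, 14 were detected on 0 of 24 arrays. Among them were SLC4A1, the anion exchanger of the red cell membrane, AHSP, the chaperone of alpha globin, KLF1, GATA1, TAL1 and ANK1. Carbonic anhydrase CA2, which is not limited to red cells, was detected on all 24 arrays and EPOR, the erythropoietin receptor, on 21. The signal of the 17 genes, summed on a linear scale after background correction and quantile normalisation, ran from 2791 to 4660 in 72 h blood, 3602 to 10516 in 72 h spleen and 6400 to 8046 in 72 h marrow, against 7859 to 12897, 11831 to 16736 and 12516 to 17583 in the same control sites. After 24 h the sums were 3932 to 12808 in blood, 8211 to 12476 in spleen and 15250 to 18527 in marrow. The raw signal of CA2 alone reached 18242, against 226 for EPOR, so these sums mainly follow CA2. Of the 10 other globin genes on the array, among them HBG1, HBG2, HBE1, HBZ and myoglobin, 13 probes were measured and 0 were kept: HBQ1 was detected on 1 blood array and the others on 0.

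Detected probes numbered 13066 to 15721 on an array, with a median raw signal of 56.4 to 79.9 over all probes. Correlations between arrays of 1 group, over all probes tested, fell to 0.897 in the blood of the 24 h mice and were 0.935 between the 2 blood arrays of the 72 h mice, against at least 0.98 in control blood. The blood array of mouse 8 of the 72 h group stands apart in several genes below, and values without it are given there. T and NK cell markers were detected on 0 arrays for 6 of 8 genes, but NKG7, a granule protein of cytotoxic cells, on all 24, and it was higher in blood than in marrow by 0.48 ± 0.14 (limma, adjusted p = 0.0113). Platelet markers were detected on 0 arrays for 4 of 7 genes. Of the markers of the sorted cells, LYZ and ITGAM were detected on all 24 arrays, PTPRC, which encodes the CD45 used in the sort, on 13, and MPO, NPM1 and CD34 on 0. Each marker gene was read through 1 probe, so a count of 0 describes that probe and not the gene. Of 8 macrophage markers, CD163 and MARCO were detected on all 24 arrays and the others on fewer. SLC40A1 was detected on 11, C1QB on 7, C1QA on 5, C1QC on 4, VSIG4 on 1 and CD5L on 0. The signal of the 8 genes, summed in the same way, was 1276 to 1575 in 72 h blood against 602 to 641 in control blood.

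The plot of raw globin signals shows where the globin probes lay. HBA2, read by ILMN_1667796 on a log2 scale after normalisation, was 12.89, 12.13 and 10.23 in the blood of the 3 control mice, 11.46, 14.25 and 10.16 after 24 h, and 14.29 and 14.09 after 72 h. In spleen it lay between 14.07 and 14.31 on all 8 arrays. In marrow it was 13.39, 12.99 and 13.71 in control mice, 13.79, 14.25 and 14.12 after 24 h, and 14.21 and 14.26 after 72 h. Blood was therefore the site with the spread: 5 of the 6 control and 24 h blood arrays lay below every spleen and marrow array, and the blood array of mouse 2 and both 72 h blood arrays lay among them.

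**Figure D1:**
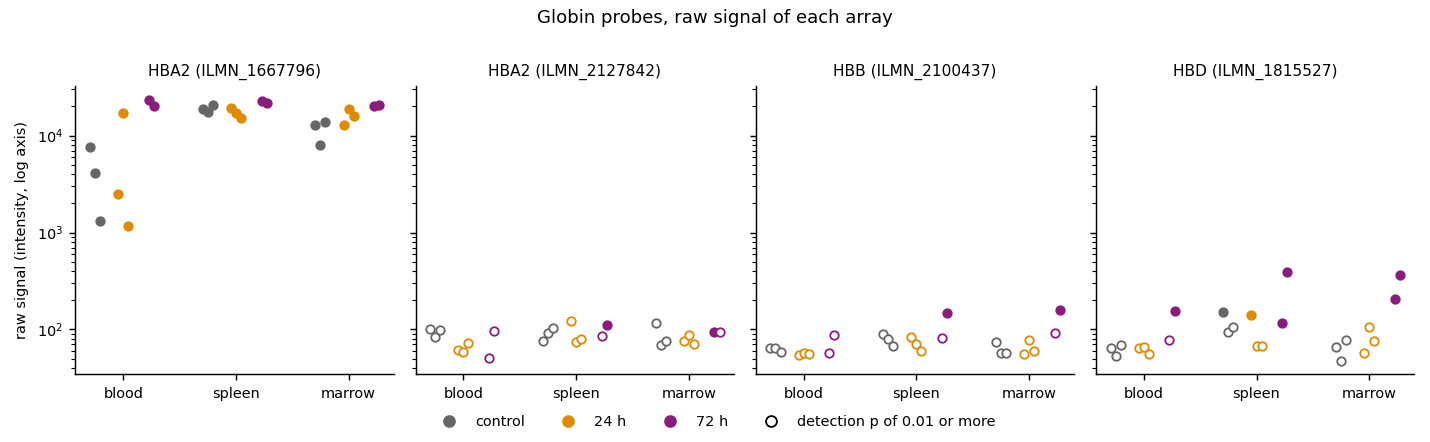
Raw signal (log axis, linear units of mean bead intensity) of the 4 globin probes in blood, spleen and marrow, for control mice, mice treated for 24 h and mice treated for 72 h. Each point is 1 array and open points were not detected; ILMN_1667796 of HBA2 lies between 1180 and 23576 on all arrays, while HBB and the second HBA2 probe are closed on 2 arrays each and HBD on 7.

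Across all mice HBA2 was lower in blood than in marrow by 1.25 ± 0.40 on the log2 scale (SE, 8 mice, limma with the mouse as a block, adjusted p = 0.0197), in 6 of 8 mice, and 43.8% of all 17116 probes passed in that comparison. It was also lower in blood than in spleen, by 1.57 ± 0.40 (adjusted p = 0.0156, limma, 7 of 8 mice), where 20.7% of all probes passed. Set against control blood, the 72 h blood was higher by 2.44 ± 0.76 (limma, adjusted p = 0.0217), and these 2 groups did not overlap. In that comparison 30.7% of all probes passed. Set against 24 h blood, the 72 h blood differed by 2.23 (adjusted p = 0.071, limma). These calls rest on few mice: the blood-marrow difference missed 0.05 without mouse 1, 6, 8 or 9 (adjusted p = 0.0553 to 0.0711) and within either BeadChip (0.264 and 0.0813), the blood-spleen difference without mouse 1, 6 or 9 (0.0555 to 0.0583) and within either BeadChip (0.563 and 0.0808), and the 72 h difference without mouse 5, 6, 8 or 9 (0.0598 to 0.149) and without the blood array of mouse 8 alone (2.34, 0.143). The 72 h difference was 3.01 (0.0148) within the BeadChip that holds 2 control mice. A pair of further differences passed: blood was lower than marrow by 2.10 ± 0.64 in 24 h mice (adjusted p = 0.0219), and than spleen by 2.43 ± 0.64 in control mice (0.0453). The first missed 0.05 without mouse 1 (0.136) or 3 (0.184), and the second without mouse 1, 4, 5 or 6 (0.0726 to 0.588).

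HBD, the minor adult beta-type globin, was near background in control cells and was clearest after 72 h of treatment. In marrow its normalised log2 values were 4.77, 4.55 and 5.19 in control mice and 4.79, 5.87 and 5.20 after 24 h, none of them detected, and 7.57 and 8.76 after 72 h, both detected. In spleen they were 6.54, 5.62 and 5.80 in control mice, 5.80, 4.96 and 4.94 after 24 h, and 6.87 and 8.0 after 72 h. Blood gave 4.79, 4.69 and 4.91 in control mice, 4.93, 5.44 and 4.69 after 24 h, and 5.92 and 6.78 after 72 h. In each site both 72 h arrays lay above every control and 24 h array. The 7 arrays on which HBD was detected include 5 of the 6 from 72 h mice. HBD therefore met the filter of at least 3 detected arrays only through the 72 h mice, the group in which it is high. Its 72 h differences are not independent of that filter.

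The rise of HBD in 72 h marrow against control marrow was 3.33 ± 0.42 (SE, 2 against 3 arrays, limma, adjusted p = 0.000391), or at least 4.88-fold, since the control arrays give only a bound. There 1.87% of all probes passed. The call held in all 18 alternatives that could be run, with differences of 2.37 to 3.92 and adjusted p of 0.000161 to 0.0344, the highest within the BeadChip of 2 control mice and the 72 h mice. With the BeadChip as a block the difference was 3.4 (adjusted p = 0.00132). Against 24 h marrow, 72 h marrow was higher by 2.88 ± 0.42 (limma, adjusted p = 0.00541, at least 4.56-fold), which missed 0.05 without mouse 9 (2.28, 0.0565) and with the BeadChip as a block (3.11, 0.0523). In that comparison 4.25% of all probes passed.

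In spleen, HBD was higher after 72 h than after 24 h by 2.20 ± 0.42 (limma, adjusted p = 0.00605, 11.9% of all probes passed) and kept that call with each mouse left out in turn, while 72 h against control spleen gave 1.44 (adjusted p = 0.0996). In blood the 72 h arrays exceeded control blood by 1.55 ± 0.42 (adjusted p = 0.0123, limma), at least 1.43-fold, a call that was lost without mouse 5 (0.0558) or 9 (0.0523), without the blood array of mouse 8 (1.98, 0.0517), within the BeadChip of 2 control mice (1.55, 0.0508) and with median scaling (1.37, 0.0579). With 1 mean per mouse over the 3 sites, HBD was higher after 72 h than in controls by 2.11 ± 0.30 (limma, adjusted p = 0.0239, 20.4% of all probes passed) and than after 24 h by 2.13 ± 0.30 (0.0207, 17.6%). Both missed 0.05 without mouse 1, 4, 5 or 6 (0.0501 to 0.0981) and with the BeadChip as a block (0.0981 and 0.438). The fitted HBD difference of blood from marrow was -0.71 ± 0.18 over all mice (adjusted p = 0.00521, limma, lower in 5 of 8 mice) and that from spleen -0.83 ± 0.18 (0.00752, 7 of 8 mice). Both calls were lost within the BeadChip that holds 1 control mouse (0.851 and 0.521). HBD was detected on only 1 of 8 blood, 4 of 8 spleen and 2 of 8 marrow arrays, so these sizes rest mostly on undetected values, and by group blood minus marrow was -0.265 in 24 h mice and -0.0418 in control mice, with 0 arrays detected, against -1.81 in 72 h mice. The 72 h difference had an SE of 0.35 (adjusted p = 0.00653, limma) and missed 0.05 without mouse 8 (0.0569). In control mice HBD in blood lay at least 1.12-fold below spleen (adjusted p = 0.031, limma), lost without mouse 4, 5 or 6 (0.131 to 0.268).

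The HBD means of the 72 h groups were 8.16 ± 0.84 in marrow, 7.43 ± 0.80 in spleen and 6.35 ± 0.61 in blood (SD, n = 2). Within the same 2 mice spleen minus marrow was -0.733 ± 0.349 (SE, limma, adjusted p = 0.508), with spleen the lower in both. The other 6 groups had 0 or 1 array detected and are not ranked. EPOR, 1 of the 2 erythroid markers that could be tested, was also higher after 72 h than after 24 h, by 1.14 in marrow (limma, adjusted p = 0.0345), 1.11 in spleen (0.021) and 1.47 in blood (0.00702), and over sites by 0.89 (0.0269) than in controls and by 1.24 (0.0207) than after 24 h. The other one, CA2, was lower over sites after 72 h than in controls by 1.34 (0.0289). Their part in the HBD differences was not tested. HBB could not be tested, but its 2 detected arrays are of mouse 9, which also gave the highest HBD value in each site.

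ALAS2, the red cell form of the first enzyme of haem synthesis, was seen by 1 of its 3 probes: ILMN_1708323 was detected on 13 of 24 arrays and the other 2 on 0. Its normalised log2 values in marrow were 4.77, 5.19 and 6.0 in control mice, 6.03, 6.96 and 6.91 after 24 h, and 8.40 and 10.09 after 72 h. In spleen they were 6.85, 6.58 and 6.58 in control mice, 7.36, 5.26 and 6.15 after 24 h, and 5.4 and 8.88 after 72 h. Blood gave 4.69, 4.59 and 4.52 in control mice, 4.60, 5.54 and 4.81 after 24 h, and 4.78 and 7.84 after 72 h. In marrow the 3 groups did not overlap; in blood and spleen the 72 h mice split, mouse 9 above every other array of the site and mouse 8 among the rest.

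**Figure D2:**
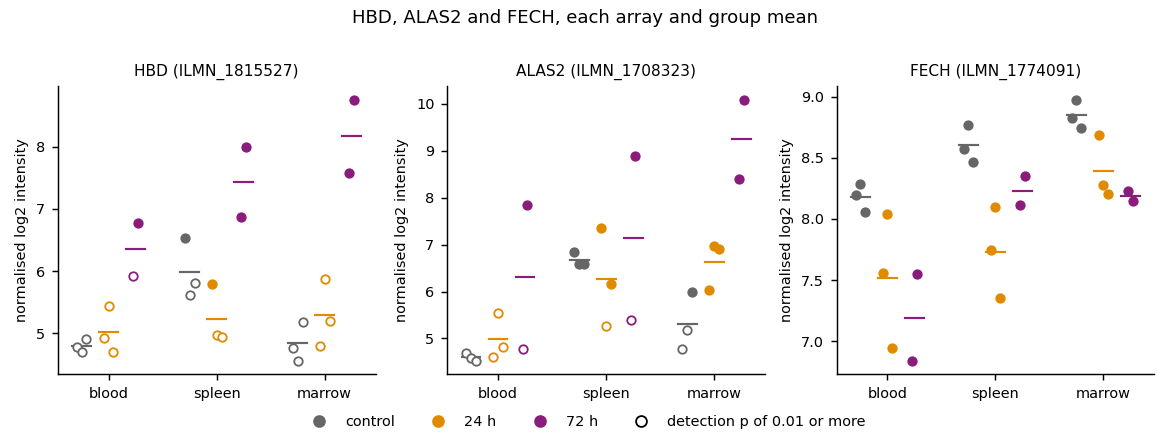
Normalised log2 signal of HBD, ALAS2 and FECH in blood, spleen and marrow for control, 24 h and 72 h mice. Points are arrays and bars are group means; both 72 h marrow arrays of HBD (7.57 and 8.76) and ALAS2 (8.40 and 10.09) lie above every control marrow array, while the FECH group means are lowest in blood in each treatment group.

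Over all mice ALAS2 was lower in blood than in both other sites: blood minus marrow was -1.77 ± 0.30 (SE, limma, adjusted p = 0.000351), lower in 8 of 8 mice, and blood minus spleen -1.39 ± 0.30 (0.00781), lower in 7 of 8 mice. ALAS2 was detected on only 1 of 8 blood arrays, against 6 of 8 in marrow and 6 of 8 in spleen, so these sizes rest largely on undetected blood values. Both calls held with each mouse left out in turn, and without the mouse block the spleen comparison gave an adjusted p of 0.0688. Both were lost within the BeadChip that holds 1 control mouse, and the spleen call also within the other BeadChip. Within groups, blood was lower than marrow by 2.94 ± 0.59 in 72 h mice (adjusted p = 0.00778, limma), at least 1.53-fold lower in 24 h mice (0.0179), and at least 1.79-fold lower than spleen in control mice (0.0276). These 3 calls were lost without mouse 8 (0.138) or its blood array alone (-2.7, 0.0604), without mouse 3 (0.0831) and without mouse 4, 5 or 6 (0.153 to 0.316). ALAS2 in 72 h marrow exceeded control marrow by 3.93 ± 0.84 (limma, adjusted p = 0.0212), with 1 of 3 control arrays detected. Without mouse 4, 5 or 6 the difference was 3.65 to 4.27 and its adjusted p was 0.0756 to 0.165, and within the BeadChip of 2 control mice it was 3.65 (0.185). The mean over sites was higher by 2.04 ± 0.60 after 72 h than in controls (adjusted p = 0.0447, limma), lost without mouse 1, 4, 5 or 6 (0.0712 to 0.12). With each mouse left out in turn, the size of this difference ran from 0.664 to 3.41, so it depends strongly on single mice.

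ALAS1, the form of the enzyme that most cells use, was seen by ILMN_2385647 on all 24 arrays, by ILMN_1700047 on 3 and by a further probe on 0. The raw signal of ILMN_2385647 ran from 124 to 236. Its level was higher in blood than in spleen by 0.57 ± 0.14 on the log2 scale (limma, adjusted p = 0.0152), in 7 of 8 mice, and higher in blood than in marrow by 0.66 ± 0.23 in 24 h mice (0.0387), where 32.9% of all probes passed. The first call was lost without mouse 1, 6 or 9 (0.0539 to 0.063) and the second without mouse 1, 2, 4 or 5 (0.061 to 0.272). UROD, the cytosolic decarboxylase in the middle of the pathway, was detected on all arrays at 2322 to 5536 units of raw signal. Its normalised values lay between 11.38 and 12.15, and it passed in 0 of 24 comparisons (limma), as did the dimmer ALAS1 probe. At an unadjusted p under 0.05 UROD passed in 72 h blood against control blood (0.42 ± 0.18, adjusted p = 0.077) and against 24 h blood (0.37 ± 0.18, adjusted p = 0.179).

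FECH, which places iron in the haem ring, was lower in blood than in spleen and marrow. ILMN_1774091 was detected on 24 arrays and the other FECH probe on 0. In blood its normalised log2 values were 8.19, 8.29 and 8.06 in control mice, 7.56, 8.04 and 6.94 after 24 h, and 6.84 and 7.55 after 72 h. Spleen gave 8.58, 8.77 and 8.47, then 7.75, 8.09 and 7.36, then 8.11 and 8.35 in the same order of groups, and marrow gave 8.83, 8.98 and 8.75, then 8.68, 8.27 and 8.21, then 8.23 and 8.15. Control arrays were above all treated arrays of the same site in each of the 3 sites.

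FECH was lower in blood than in marrow by 0.85 ± 0.12 (SE, limma, adjusted p = 0.000109) and than in spleen by 0.56 ± 0.12 (0.00838), each in 8 of 8 mice, and both calls held with each mouse left out. The marrow call was lost within the BeadChip that holds 1 control mouse (0.104), and the spleen call within either BeadChip. Blood was below marrow within each treatment group as well: by 0.87 ± 0.20 in 24 h mice (adjusted p = 0.00486, limma), by 1.00 ± 0.24 in 72 h mice (0.0177) and by 0.67 ± 0.20 in control mice (0.0372). Those calls were lost without mouse 1 (0.0679), without mouse 8 (-0.60, 0.302) or its blood array alone (-0.68, 0.172) and without mouse 4, 5 or 6 (0.172 to 0.273). Among all probes, 13.4% passed between 72 h blood and marrow and 12.9% between control blood and marrow. In 72 h mice blood was also below spleen by 1.04 ± 0.24 (adjusted p = 0.0351, limma, 3.02% of all probes), lost without mouse 4, 5, 6 or 8 (0.0784 to 0.164) and without the blood array of mouse 8 (-0.72, 0.228). In 24 h mice spleen was below marrow by 0.66 ± 0.20 (0.0451, 11.0% of all probes), lost without mouse 1, 3, 4, 5 or 6 (0.0826 to 0.312).

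Against controls, FECH was lower in 24 h spleen by 0.87 ± 0.25 (limma, adjusted p = 0.0331), where 9.79% of all probes passed, and in 72 h blood by 0.99 ± 0.28 (0.0148). The spleen call was lost without mouse 1, 3, 4, 5 or 6 (0.0649 to 0.166) and with the BeadChip as a block (-0.86, 0.0854). The blood call was lost without mouse 4 (0.0601), 5 (0.07) or 8 (-0.63, 0.236). Means over the 3 sites differed from controls by -0.67 after 24 h (adjusted p = 0.132, limma) and by -0.67 after 72 h (0.0528).

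BPGM, seen by 1 of its 3 probes, was lowest in blood and lowest of all in the blood of mouse 8. Its normalised log2 values in blood were 7.14, 7.49 and 7.12 in control mice, 7.30, 6.42 and 8.11 after 24 h, and 4.79, not detected, and 6.45 after 72 h. In spleen they were 7.42, 7.68 and 7.69 in control mice, 8.74, 7.54 and 8.35 after 24 h, and 6.35 and 7.71 after 72 h. Marrow gave 7.28, 7.30 and 7.44 in control mice, 7.59, 7.65 and 7.76 after 24 h, and 6.68 and 7.05 after 72 h. The 72 h marrow arrays lay below all other marrow arrays, and mouse 8 below mouse 9 in each site.

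Blood was lower than spleen for BPGM by 0.90 ± 0.18 (limma, adjusted p = 0.00558), in 8 of 8 mice and with each mouse left out. It was lower than marrow by 0.58 ± 0.18 (0.0174), lost without mouse 2, 6 or 8 (0.057 to 0.156). Both calls were lost within either BeadChip. In 72 h mice the differences were -1.25 ± 0.35 from marrow (0.0322) and -1.41 ± 0.35 from spleen (0.0433). The first was lost without mouse 4, 5, 6 or 8 (0.0583 to 0.48) and the second without mouse 1, 4, 5, 6 or 8 (0.0524 to 0.132). Without the blood array of mouse 8 alone, the differences were -0.44 from marrow over all mice (0.0849), and -0.85 from marrow (0.253) and -1.01 from spleen (0.256) in 72 h mice. Blood after 72 h was lower than control blood by 1.63 ± 0.47 (limma, adjusted p = 0.0156) and than 24 h blood by 1.65 ± 0.47 (0.0396), where 7.25% of all probes passed. Without the blood array of mouse 8 the difference from control blood was -0.80 (0.335), and without mouse 4 or 5 its adjusted p was 0.0532 or 0.078. The difference from 24 h blood missed 0.05 without mouse 1, 3, 4, 5, 6 or 8 (0.083 to 0.436) and without that array (-0.82, 0.523). The mean over sites was lower after 72 h than after 24 h by 1.21 ± 0.34 (0.0427), which missed 0.05 without mouse 1, 3, 4, 5, 6 or 8 (0.0722 to 0.276).

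HMOX1, the inducible enzyme that opens the haem ring, was higher in spleen cells after 24 h of treatment and in marrow cells after 72 h than in control cells of the same site. In blood its normalised log2 values were 7.73, 7.37 and 7.96 in control mice, 9.53, 8.38 and 9.25 after 24 h, and 7.47 and 6.53 after 72 h. In spleen they were 7.01, 7.15 and 6.72 in control mice, 9.18, 8.72 and 9.27 after 24 h, and 7.75 and 7.53 after 72 h. Marrow gave 6.55, 5.84 and 6.64 in control mice, 8.02, 8.15 and 7.29 after 24 h, and 8.26 and 8.52 after 72 h. The 24 h arrays lay above all control arrays in each of the 3 sites. In blood and spleen the 72 h arrays lay below all 24 h arrays, and in marrow above them.

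**Figure D3:**
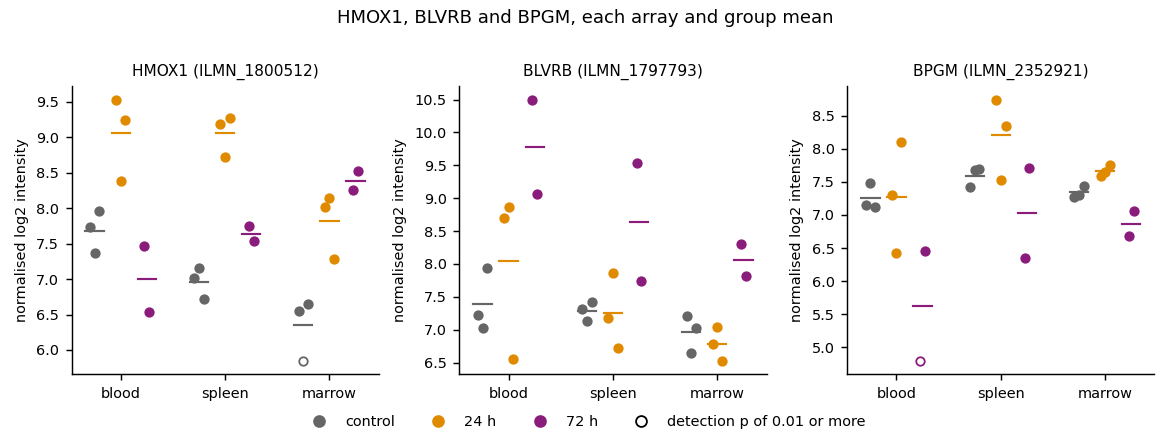
Normalised log2 signal of HMOX1, BLVRB and BPGM in blood, spleen and marrow for control, 24 h and 72 h mice, with arrays as points and group means as bars. HMOX1 after 24 h averages 9.05 in blood, 9.06 in spleen and 7.82 in marrow; after 72 h it averages 7.0, 7.64 and 8.39 in the same sites.

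In spleen the 24 h arrays exceeded control arrays for HMOX1 by 2.10 ± 0.32, a 4.29-fold difference (SE, 3 against 3 arrays, limma, adjusted p = 0.00103), a call that held with each mouse left out and with the BeadChip as a block (2.00, 0.00568). Within the BeadChip that holds 1 control mouse it was 2.05 (0.234). The same comparison gave 1.47 in marrow (adjusted p = 0.0845, 0.158% of all probes passed) and 1.37 in blood (0.142, 0.0175%). Averaged over the 3 sites of a mouse, HMOX1 was higher after 24 h by 1.65 ± 0.18 (limma, adjusted p = 0.0295), where 0.467% of all probes passed. That call was lost without mouse 1, 4, 5 or 6 (0.111 to 0.192), with the BeadChip as a block (1.55, 0.313) and within 1 BeadChip (1.55, 0.758). Whether the 24 h difference depended on the site was put to an F test, which gave an adjusted p of 0.477.

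After 72 h, HMOX1 in marrow exceeded control marrow by 2.04 ± 0.35 (limma, adjusted p = 0.00517), lost without mouse 5 (1.79, 0.0601) and within the BeadChip of 2 control mice (2.15, 0.0519). The other sites gave 0.68 in spleen (adjusted p = 0.243) and -0.68 in blood (0.142). The F test of whether the 72 h difference depended on the site gave an adjusted p of 0.0522, so the planned test missed the threshold of 0.05. Of its 2 contrasts, the change of blood minus marrow was -2.73 ± 0.49 (limma, adjusted p = 0.0205). The change of spleen minus marrow, -1.36 ± 0.49, did not pass. These contrasts were not planned results, and their dependence on single mice or settings was not examined. Compared with 24 h, the 72 h arrays were lower by 2.05 ± 0.35 in blood (limma, adjusted p = 0.00425) and by 1.42 ± 0.35 in spleen (0.0198), and differed by 0.57 in marrow (0.289). The blood call held with each mouse left out but not with the BeadChip as a block (-1.90, 0.0665), and the spleen call was lost without mouse 1 (0.0652) or 8 (0.0737) and with the block (-1.27, 0.125). An F test of 72 h against 24 h by site, added after these values were seen, gave an adjusted p of 0.145.

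Means over sites for HMOX1 were higher after 72 h than in controls by 0.68 ± 0.20 (limma, adjusted p = 0.0443), lost without mouse 1, 4, 5, 6 or 8 (0.0568 to 0.269), and lower than after 24 h by 0.97 ± 0.20 (0.0263), lost without the same mice (0.0537 to 0.109). Between sites, blood exceeded marrow by 1.34 ± 0.31 in control mice (limma, adjusted p = 0.0108) and by 1.24 ± 0.31 in 24 h mice (0.00808), and was below it by 1.39 ± 0.38 in 72 h mice (0.0281). Spleen exceeded marrow by 1.24 ± 0.31 in 24 h mice (0.0193). The control call was lost without mouse 4, 5 or 6 (0.0635 to 0.101), the 24 h calls without mouse 1 or 3 (0.0601 to 0.146) and the 72 h call without mouse 4, 8 or 9 (0.0556 to 0.295). Macrophages are known to carry HMOX1, and only CD163 and MARCO of their 8 markers were detected on every array. The signal of their markers, summed on a linear scale after background correction and quantile normalisation, was 728 to 1150 in 24 h spleen against 684 to 760 in control spleen, and 762 to 1181 in 72 h marrow against 577 to 833 in control marrow. It was 698 to 1205 in 24 h blood and 691 to 847 in 24 h marrow. The 72 h sums were 1276 to 1575 in blood, against 602 to 641 in control blood, and 1266 to 1476 in spleen. HMOX1 averaged 7.0 in 72 h blood and 7.64 in 72 h spleen, against 7.69 and 6.96 in the same control sites. The part of macrophages in the HMOX1 differences was not tested.

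BLVRB, a biliverdin and flavin reductase abundant in red cells, was highest in the blood of 72 h mice. Its normalised log2 values in blood were 7.22, 7.03 and 7.93 in control mice, 8.71, 8.86 and 6.55 after 24 h, and 10.5 and 9.06 after 72 h. In spleen they were 7.31, 7.13 and 7.42 in control mice, 7.18, 7.86 and 6.72 after 24 h, and 9.53 and 7.74 after 72 h. Marrow gave 7.21, 6.64 and 7.02 in control mice, 6.78, 7.04 and 6.52 after 24 h, and 8.30 and 7.81 after 72 h. The 72 h arrays lay above every other blood array and every other marrow array, and in each site mouse 8 was the higher of the pair.

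Over all mice BLVRB was higher in blood than in marrow by 1.14 ± 0.20 (limma, adjusted p = 0.000508), in 8 of 8 mice and with each mouse left out. That call was lost within the BeadChip that holds 1 control mouse (0.312). Blood exceeded spleen by 0.68 ± 0.20 (0.0307) in 5 of 8 mice, lost without mouse 1, 2, 4, 5, 6 or 9 (0.0629 to 0.11) and without the blood array of mouse 8 (0.63, 0.0748). The spleen call was also lost within either BeadChip. Blood exceeded marrow by 1.26 ± 0.33 in 24 h mice (0.00975) and by 1.72 ± 0.40 in 72 h mice (0.0147). The 24 h call was lost without mouse 1 (0.126) or 2 (0.118), and the 72 h call without mouse 8 (1.25, 0.211) or its blood array alone (1.57, 0.0936). Blood after 72 h exceeded control blood by 2.39 ± 0.58 (limma, adjusted p = 0.00764) and by 2.30 (0.033) within the BeadChip of 2 control mice. Without the blood array of mouse 8 that difference was 1.67 (0.146). Means over sites were higher after 72 h than in controls by 1.61 ± 0.43 (0.0359) and than after 24 h by 1.46 ± 0.43 (0.0468). They missed 0.05 without mouse 1, 4, 5, 6 or 8 (0.0583 to 0.267) and without mouse 1, 3, 4, 5, 6 or 8 (0.0741 to 0.308).

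**Figure D4:**
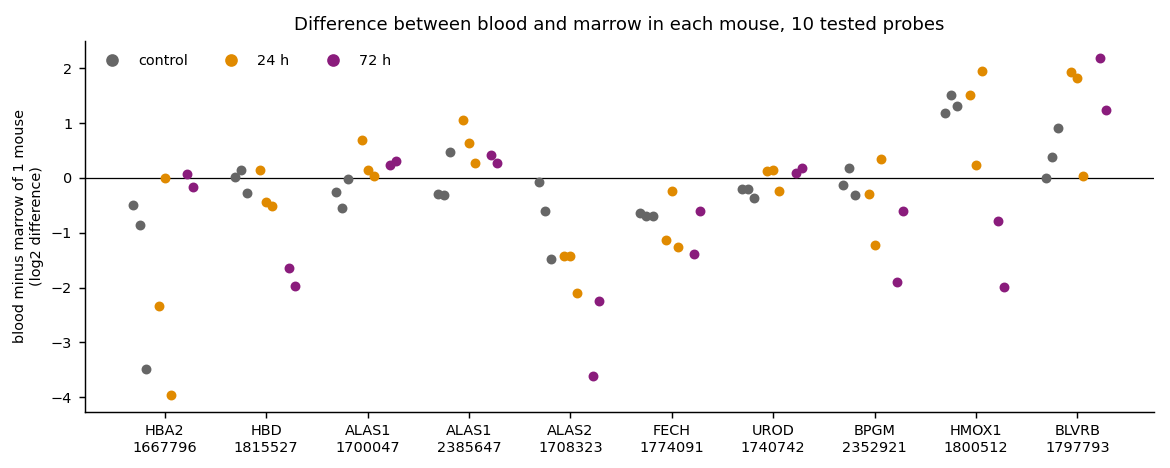
Blood minus marrow, in normalised log2 signal, for the 10 tested probes; each point is 1 of 8 mice, coloured by treatment group. FECH and ALAS2 lie below 0 and BLVRB above 0 in 8 of 8 mice, while HMOX1 lies above 0 in control and 24 h mice and below 0 in both 72 h mice.

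Between blood and marrow over all mice, 6 probes passed, 1 higher and 5 lower in blood, against 43.8% of all 17116 probes. Between blood and spleen 7 passed, 2 higher and 5 lower, against 20.7%. Between spleen and marrow 0 of 10 passed in limma's test, against 8.49% of all probes. At an unadjusted p under 0.05, 2 did (FECH and BLVRB). The median difference of the 10 probes between blood and marrow was -0.305, against -0.0334 over all probes, and between blood and spleen -0.265, against -0.0249. Between blood and marrow the 6 of 10 lie near the share of all probes, and between blood and spleen the 7 of 10 lie above it. As the members were chosen with earlier results of these data known, their counts are a description and not an independent test.

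Within treatment groups, blood and marrow differed for 6 probes in 24 h mice (32.9% of all probes), 6 in 72 h mice (13.4%) and 2 in control mice (12.9%). Blood and spleen differed for 0 probes in 24 h mice (1.16% of all probes), 2 in 72 h mice (3.02%) and 3 in control mice (4.22%). At an unadjusted p under 0.05, 5 differed in 24 h mice. Spleen and marrow differed for 2 in 24 h mice (11.0%), 0 in 72 h mice (0.204%) and 0 in control mice (0.333%). Unadjusted, 1 differed in 72 h mice and 2 in control mice. All 3 zero counts are from limma. Each share is of all probes at an adjusted p under 0.05, and no share was taken for the unadjusted counts.

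Between treatments, 72 h against control passed for 5 probes in blood (30.7% of all probes), 0 in spleen (0.631%) and 3 in marrow (1.87%). In spleen, 2 passed unadjusted. The 3 in marrow were HBD, ALAS2 and HMOX1, all higher. For 24 h against control, 0 passed in blood (0.0175%), 2 in spleen (9.79%) and 0 in marrow (0.158%), again by limma. Unadjusted, 4 passed in blood and 1 in marrow. Against 24 h, the 72 h arrays differed for 2 probes in blood (7.25%), 2 in spleen (11.9%) and 1 in marrow (4.25%). Averaged over sites, 72 h against control passed for 4 probes, all higher (20.4%), 24 h against control for 1 (0.467%) and 72 h against 24 h for 4, 2 higher and 2 lower (17.6%). The tests of whether a treatment difference depended on the site, F tests of limma, passed for 0 of 10 probes. Of all probes, 0.123% passed for 24 h against control and 0.304% for 72 h against control. In the added test of 72 h against 24 h, 0% did. Unadjusted, 2, 4 and 3 member probes passed in the same order. All shares are of probes at an adjusted p under 0.05, and no share was taken for the unadjusted counts. Comparisons that share a group share its arrays and are not independent.

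**Figure D5:**
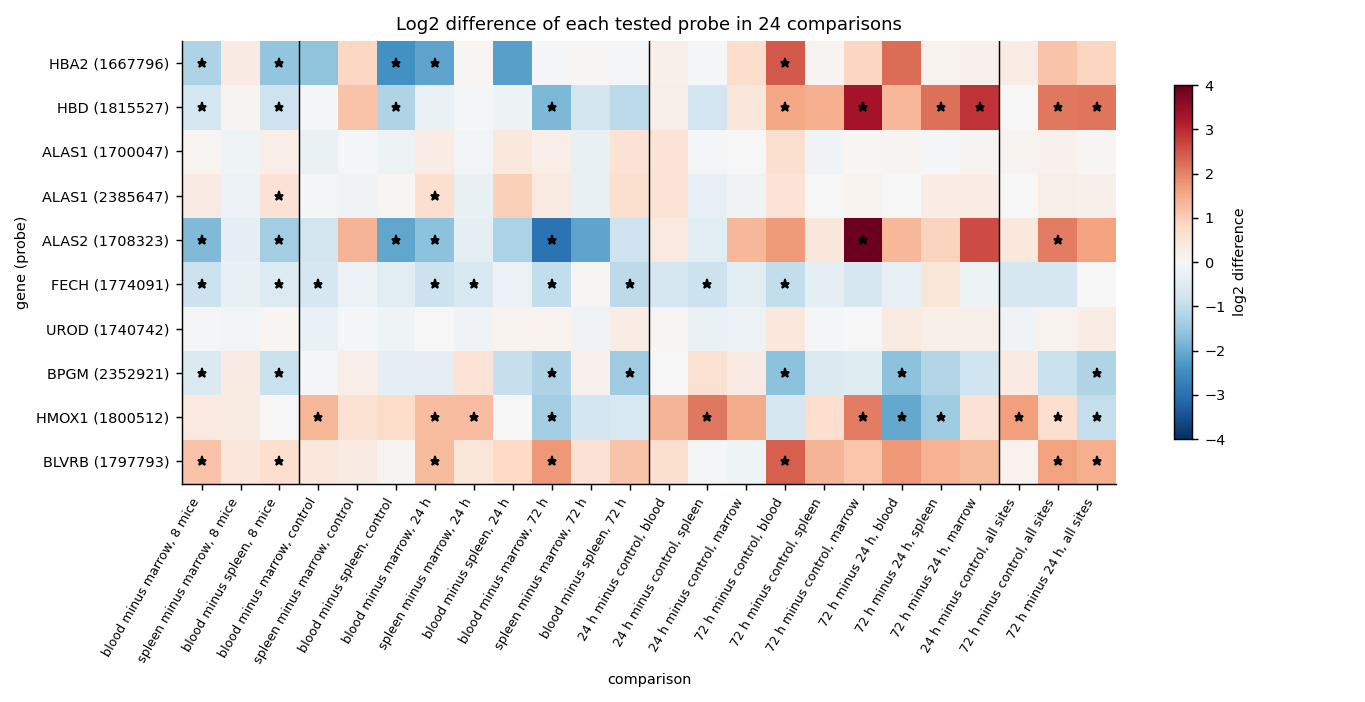
Differences in normalised log2 signal (colour, -4 to 4, first group minus second) of the 10 tested probes in 24 comparisons of sites and treatments; stars mark an adjusted p under 0.05. HMOX1 passes in 11 and HBD in 10 comparisons, FECH in 9, and UROD and the dimmer ALAS1 probe in 0.

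Other steps of haem synthesis did not move as a block. Of the 5 further pathway genes, ALAD, UROS, CPOX and PPOX were tested. ALAD, which joins 2 aminolevulinate molecules, was lower in blood than in marrow by 0.63 ± 0.14 (limma, adjusted p = 0.00245), and PPOX, the oxidase before the last step, was higher by 0.61 ± 0.11 (0.000571), with a median over the 4 genes of -0.204 against -0.0334 for all probes. CPOX, the mitochondrial oxidase before PPOX, was lower in 72 h marrow than in control marrow by 1.46 ± 0.26 (limma, adjusted p = 0.00698), the marrow in which ALAS2 was higher. In 72 h blood 3 of the 4 passed against control blood, where 30.7% of all probes did: ALAD was lower by 1.10 (0.014), CPOX lower by 0.78 (0.0329) and UROS higher by 0.89 (0.029). Leaving out mice in turn was run for the 10 members and not for these list genes.

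Beside HMOX1 and BLVRB, haem breakdown holds HMOX2, the constitutive oxygenase, and BLVRA, the main biliverdin reductase of adults. BLVRA, detected on all 24 arrays, was higher in blood than in marrow by 0.36 ± 0.13 (limma, adjusted p = 0.0364). HMOX2 was higher over the 3 sites after 72 h than in controls by 0.70 ± 0.19 (0.0366, limma). Its probe was detected on only 3 of 24 arrays, so that size rests mostly on undetected values. HMOX1 is a known target of the oxidant sensor NRF2, encoded by NFE2L2, and of the haem-binding repressor BACH1. Of 12 genes of that group 8 were tested, and in 24 h against control spleen, where HMOX1 was higher, 0 of 8 passed, also at an unadjusted p under 0.05 (limma), with a median difference of 0.216 against -0.0136 for all probes. As 9.79% of all probes passed there, a count of 0 among 8 genes lies close to that share. NFE2L2 itself was lower in 72 h blood than in control blood by 1.68 ± 0.45 (limma, adjusted p = 0.0108). Between blood and marrow GCLM, a subunit of the glutathione-making ligase, was higher by 0.83 (0.00216) and the thioredoxin reductase TXNRD1 lower by 0.82 (0.000733).

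Genes of haem and iron traffic split in both directions. Of 32 listed, 21 were tested, and between blood and marrow 10 passed, 4 higher and 6 lower in blood (median -0.153), near the 43.8% of all probes that passed there. The porphyrin transporter ABCB6 was higher by 0.67 (limma, adjusted p = 0.000604) and the mitochondrial iron importer SLC25A37 by 0.54 (0.00134). ABCB10, a mitochondrial transporter needed for haem synthesis, was lower by 0.77 (0.00292), CLPX, a mitochondrial unfoldase that activates ALAS in yeast, lower by 0.72 (0.00192), the iron exporter SLC40A1 lower by 0.63 (0.00234) and the haemoglobin scavenger receptor CD163 lower by 0.79 (0.0121). The last 2 also stand in the macrophage list, of which 4 of 6 tested genes passed in this comparison: the complement gene C1QB was higher in blood by 1.41 (0.000746) and the scavenger receptor MARCO by 0.56 (0.0154). In 72 h blood 7 of 21 passed against control blood, 3 higher and 4 lower (median 0.0162), near the 30.7% of all probes. ABCB10 was lower by 1.78 ± 0.38 (limma, adjusted p = 0.00409), CLPX by 1.61 (0.00647) and the transferrin receptor TFRC by 0.77 (0.0383). ABCB6 was higher by 1.5 (0.00872) and the endosomal iron reductase STEAP3 by 1.09 (0.0181).

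Around BPGM, 5 of 6 genes of bisphosphoglycerate turnover and lower glycolysis were tested. The mutase PGAM1 was lower in blood than in marrow by 0.73 (limma, adjusted p = 0.00144), as BPGM was, and the phosphatase MINPP1 was lower by 0.55 (0.0403), while the pyruvate kinase PKM was higher by 0.52 (0.00402). Of the 2 erythroid markers that could be tested, CA2 was lower in blood than in marrow by 1.01 ± 0.19 (limma, adjusted p = 0.000834) and lower in 72 h blood than in control blood by 1.65 (0.0125). EPOR was lower in blood than in marrow by 0.44 (0.0287) and higher in 72 h blood than in control blood by 1.41 (0.00337). In a bulk sample of sorted cells, fewer cells of a type and less RNA per cell cannot be told apart.

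The members fell into a few patterns over the 24 arrays, given as Pearson correlations of normalised values that share arrays, mice and sites. HBD and ALAS2 correlated at 0.848, HBA2 with ALAS2 at 0.564 and HBA2 with HBD at 0.493, while BPGM and BLVRB ran opposite at -0.847 and FECH and HMOX1 at -0.599. The probes most like HBD were those of KRTAP4-7 (0.963), NT5DC2 (0.861) and ALAS2, and most like ALAS2 were CD24 (0.853), HBD and KRTAP4-7 (0.839). BLVRB lay closest to AAMDC (0.974), ZNF524 (0.968) and LST1 (0.965), BPGM to UBE2A (0.945), VAMP7 (0.944) and PUM2 (0.942), and FECH to ARHGEF6 (0.927), ERLIN2 (0.918) and PHACTR3 (0.909). HMOX1 lay closest to NBPF3 (0.895), AIDA (0.888) and PTK2B (0.848), UROD to SNRPA (0.843), HBA2 to CD163L1 (0.738) and ALAS1 to CLUL1 (0.797).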

How the data were processed

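The authors deposited the mean bead intensity of each probe on 24 arrays, with no background taken off. The submitters' processing notes name GenomeStudio, with no version given in the sources used here. Each deposited intensity comes with a detection p-value. The deposited series matrix holds the same intensity minus 1 constant per array (49.7 to 64.5) and served as an alternative. The table holds 0 columns of other samples, and 0 pairs of arrays were identical. From the platform's listing 30113 probes had 1 symbol, 8 several and 17110 none, and 0 symbols were updated.

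Background was corrected by limma 3.58.1 (R 4.3.3, function neqc, offset 16), which infers the negative controls from the detection p-values, followed by quantile normalisation and a log2 transformation. Probes with a detection p-value under 0.01 on at least 3 of 24 arrays were tested, 17116 of 47231. Fits used lmFit and eBayes, two-sided, with Benjamini-Hochberg adjustment over all 17116 probes at 0.05. Site comparisons held the mouse as a fixed block, averaged over the 3 treatment groups or within 1 group. Treatments within a site used 9 group means without a block, and over sites 1 mean per mouse. The mouse pairs the 3 arrays by design, and deviations of same-mouse arrays from the group means correlated at 0.274 on average over 24 pairs. Where every array of a group was undetected, a fold is a bound, the brighter group's mean against, per array, the higher of the dim probe's value and the lowest signal among detected probes. Error is limited by the number of arrays, for which no counting interval applies.

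Named genes are all 10 members, each probe on its own, and list genes that passed in the comparison described, up to 6 with the smallest p per list, each read through its kept probe with the highest mean. For each tested member the 3 most correlated probes of other named genes were listed. The members and the lists were chosen with earlier results of these data known. Alternatives were the series matrix values, no background correction, an offset of 50, median scaling, other filters, 1 probe per gene, other mouse blocks, the BeadChip as a block or alone, each mouse left out, and the 72 h blood array of mouse 8 left out. The scripts were tested on simulated data.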

Additional observations from a re-analysis of the deposited data

Results flagged for a closer look

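HMOX1 differed between sites in opposite directions in 2 treatment groups. Blood minus marrow was -1.39 in the 72 h mice, below 0 in both of them, and 1.24 in the 24 h mice, above 0 in all 3. Spleen minus marrow was -0.751 in the 72 h mice and 1.24 in the 24 h mice, again with every mouse of each group on its side. The share of all probes that split in this way between 3 and 2 mice was not taken. The HMOX1 differences were flagged because each mouse of one group moved opposite to each mouse of the other. An F test of this dependence, chosen after the values were seen, gave an adjusted p of 0.145 over all probes (limma). The planned F test of 72 h against control gave 0.0522. Its contrast of blood minus marrow alone was -2.73 ± 0.49 (limma, adjusted p = 0.0205), and that of spleen minus marrow, -1.36 ± 0.49, did not pass. Over that planned test's alternatives the adjusted p ran from 0.027 to 0.424.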

How the results depend on the processing

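The 58 member differences that passed never changed sign under any alternative run. Of them, 12 passed with each mouse left out in turn: blood against marrow for HBD, ALAS2, FECH and BLVRB, blood against spleen for HBD, ALAS2, FECH and BPGM, HBD in 72 h against control marrow and in 72 h against 24 h spleen, and HMOX1 in 24 h against control spleen and in 72 h against 24 h blood. The 4 of HBD come from a probe that met the filter only through the 72 h mice. They are not independent of that filter, and its site differences rest mostly on undetected values. Without background correction 57 of 58 passed, with an offset of 50 there were 55, with median scaling 37, with no filter 33 and with the series matrix values 19; of those whose probe was detected on all 24 arrays 23 of 23 did. Without a replicate block 16 of 34 site differences passed, with the mouse as a random replicate block 45 of 49 tested so, with the BeadChip as a block 10 of 24, within BeadChip 1 only 3 of 29 and within BeadChip 2 only 12 of 38. Without the 72 h blood array of mouse 8 it was 35 of 49. The smaller fits hold fewer arrays.

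Counts of member probes that passed moved as follows. Blood against marrow (6 passed) gave 3 with probes detected on all arrays and 0 within BeadChip 1. Blood against spleen (7) gave 4 with probes detected on all arrays, 0 within BeadChip 1, 1 within BeadChip 2 and 4 to 7 with each mouse left out, with 4 without mouse 1, 6 or 9. Spleen against marrow (0) gave 1 with median scaling. The 9 site comparisons within treatment groups (21 in all) gave 3 with the series matrix, 8 with median scaling, 13 with no filter, 11 with probes detected on all arrays, 6 with no replicate block, 3 within BeadChip 1, 3 within BeadChip 2 and 10 to 22 with mice left out. The 9 treatment comparisons within sites (15) gave 5 with the series matrix, 4 with probes detected on all arrays, 0 within BeadChip 1, 4 within BeadChip 2 and 7 to 19 with mice left out, 7 without mouse 5. The 3 treatment comparisons over sites (9) gave 2 with the series matrix, 3 with no filter, 3 with probes detected on all arrays, 0 with the BeadChip as a block, 0 within each BeadChip and 0 to 12 with mice left out, 0 without mouse 1, 4, 5 or 6 and 5 without mouse 8. The planned F tests of site by treatment (0) gave 3 with an offset of 50, 1 with 1 probe per gene, 1 with the random replicate block and 0 to 2 with mice left out. Why these counts move was not tested beyond the smaller number of arrays or probes.

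Scaling mattered for direction over the whole array. Median scaling shifted the median of all probes between blood and spleen to -0.236, and the series matrix to -0.375, against -0.0249 with quantile normalisation; 43.8% of the probes that passed there were higher in blood, against 12.3% and 5.45% under those settings. In 72 h against control blood the shares were 43.3%, 30.8% and 17.9%. HBB was detected on 2 arrays, HBD on 7 and ALAS2 on 13. On the other arrays the normalised values of these genes lie near background and carry little information. HBD entered the tests only through its 72 h arrays, and 8 of the 18 member probes could not be tested.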
